A study of Mus musculus with 586 samples.

Results

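The mouse has 4 clusters of Hox genes, and the members described here are rows of the 18 deposited tables whose symbol is Hox followed by a, b, c or d and a number. There are 38 of them here among 23361 genes, with 10 in the Hoxa cluster on chromosome 6, 10 in Hoxb on chromosome 11, 9 in Hoxc on chromosome 15 and 9 in Hoxd on chromosome 2. They were chosen by symbol alone and ordered by cluster and by paralogue number, so that the order in which they come on can be read along each cluster. The study cut C57BL/6 mouse embryos into serial sections from the distal tip to the proximal end, took small regions of each section by laser microdissection and sequenced the RNA of each region as its own library (Geo-seq). Here 473 libraries of 18 embryos could be tied to a sample: 22 libraries of 2 embryos at E5.5, 22 of 2 at E6.0, 109 of 6 at E6.5, 101 of 2 at E7.0 and 219 of 6 at E7.5, all of untreated embryos of 1 strain. The number after E is the day of development.

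The labels give regions as letter codes, which are read here after the atlas published on such embryos. A and P are the anterior and posterior epiblast or ectoderm, L and R the left and right lateral parts, EA and EP the anterior and posterior endoderm, M the mesoderm at E7.0, and MA and MP the anterior and posterior mesoderm at E7.5. The embryo is the replicate. P-values set the mean over embryos against a spread that, with few embryos, comes largely from all genes. For E7.5, P rests on embryos 3, 4, 5 and 6, A on all 6 embryos, and MA, MP, EA and EP on embryos 5 and 6; at E7.0 every region rests on embryos 1 and 2. Values are FPKM as deposited, fragments per kilobase of transcript scaled to the mapped fragments of the library, and tests were run on log2(FPKM + 1), which understates the change of low genes. The FPKM sum of a library still ran from 53064 to 1.81e+06. Region tests, onset and counts at a fixed FPKM used values without rescaling, and rescaled fits of the region tests are given as alternatives.

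Hox genes code for homeodomain transcription factors that give cells their position along the body axis. Within a cluster the genes lie in the order of their paralogue numbers, and in vertebrates genes of low number are known to be switched on earlier and further anterior than genes of high number, a property called collinearity. In the mouse gastrula the first members are known to come on in and near the posterior primitive streak, where epiblast cells turn into mesoderm and endoderm, and Wnt, Fgf and retinoic acid signals together with Cdx factors are known regulators of that step.

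Of the members described here, the 3 with the highest levels are Hoxb1 at chr11:96365752-96368256 (plus strand), Hoxb2 at chr11:96350525-96354012 (plus strand) and Hoxa2 at chr6:52162417-52164831 (minus strand), by GENCODE release M21 on GRCm38.

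The 250 bases before the start sites of Hoxb1 and Hoxa2 are shown, since both were higher in P than in A at E7.5 and both hold a letter pattern known from sites that bind Hox proteins with their Pbx partners. The sequences are from RefSeq (GRCm38.p6), read toward the gene, and capitals mark the pattern TGAT, any 2 bases, AT and any 2 bases, searched on both strands. Hoxb1 is read from chr11:96365508-96365757 (plus strand) and Hoxa2 from chr6:52164832-52165081 (minus strand).
Hoxb1: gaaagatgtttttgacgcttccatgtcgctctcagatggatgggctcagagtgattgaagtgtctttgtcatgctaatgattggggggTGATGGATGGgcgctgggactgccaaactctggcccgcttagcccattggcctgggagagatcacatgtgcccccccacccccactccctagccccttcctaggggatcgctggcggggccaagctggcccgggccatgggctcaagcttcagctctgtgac
Hoxa2: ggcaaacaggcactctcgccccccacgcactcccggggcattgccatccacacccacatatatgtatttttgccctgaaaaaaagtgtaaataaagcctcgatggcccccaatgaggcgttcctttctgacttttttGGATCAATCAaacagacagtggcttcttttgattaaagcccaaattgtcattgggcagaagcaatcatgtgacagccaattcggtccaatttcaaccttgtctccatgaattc
The pattern began 162 bases before the Hoxb1 start site and 113 bases before that of Hoxa2. Of the 22 members with a sequence in this table, 4 held it (Hoxa2, Hoxb1, Hoxb8 and Hoxd11), as did 2506 of all 32851 promoters of this length (7.63%). A match is a description of letters and no measure of binding.

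The region labels were checked against marker genes summed per embryo. At E7.5 the 4 anterior ectoderm and epiblast markers (Sox2, Pou3f1, Otx2, Utf1) summed to 47.1 to 178 FPKM in A and 4.59 to 8.61 in P. The 5 streak and nascent mesoderm markers (T, Mixl1, Mesp1, Tbx6, Fgf8) summed to 409.5 to 1089 FPKM in P and 4.31 to 161 in A. The 6 endoderm markers summed to 933 to 3217 FPKM in EA and EP and to at most 174 in the other regions named above. EP also carried streak markers, at 69.0 to 163 FPKM. EA and EP carried the 5 decidua and maternal blood markers at 863 to 10943 FPKM, against 36.2 to 1063 in A and P. At E7.0 Otx2 was at 24.6 to 46.1 FPKM in A and 10.1 to 15.6 in P, and Mixl1 at 0.331 to 1.52 and 113 to 122. T, however, ran from 0 to 112 FPKM between the 2 embryos in A, and the endoderm marker Foxa2 from 0 to 20.3. The number of genes at 1 FPKM or more ran from 2683 to 11319 per library (median 8949). Of the 473 libraries, 26 were doubted, 22 for fewer than 5000 such genes and 4 for 1 gene with over 50% of the FPKM sum, and 3 of the 26 lay in the regions compared at E7.0 and E7.5. FPKM files without counts do not give the depth, so no counting interval is stated.

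Few Hox values reached 1 FPKM before E7.5. The share was 1.67% at E5.5, 0.718% at E6.0, 1.47% at E6.5, 2.42% at E7.0 and 8.45% at E7.5. By a rule that asks for a mean of at least 1 FPKM in every embryo of 1 region, Hoxb1 came on at E7.0 (in P and M), and Hoxa2, Hoxb2, Hoxb3 and Hoxd1 at E7.5. The other 33 members did not meet this rule at any stage. The rule is harder to meet where more embryos were taken: 2 at E7.0 and in MP, 4 in P of E7.5 and 6 in P of E6.5. Hoxd1 met it in MP alone, and Hoxa3 failed it with a mean of 2.32 FPKM in P of E7.5. With 0.5 FPKM in place of 1, Hoxb2 joined Hoxb1 at E7.0, and Hoxc10 met the rule at E6.5. With 2 FPKM no member came on at E7.0 and 4 did at E7.5, Hoxb1 among them. With 5 FPKM 2 came on, both at E7.5: Hoxb1 and Hoxb2. Onset at this scale is an order of stages, and it does not set the genes of 1 stage in order.

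**Figure D1:**
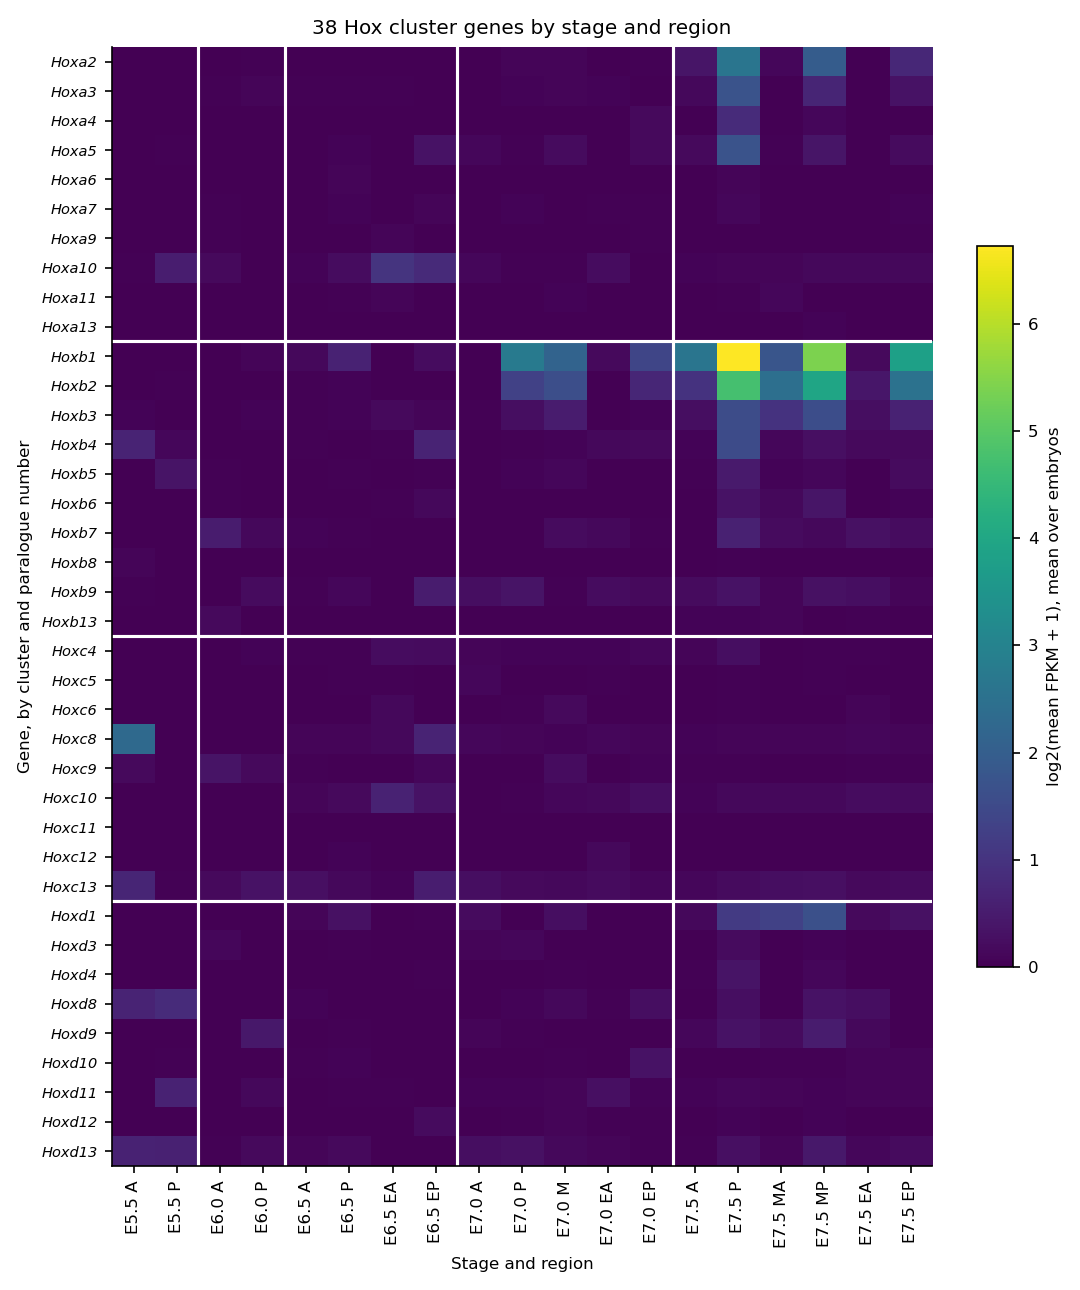
Level of each of the 38 Hox genes (rows, by cluster and paralogue number, white lines between clusters) in each stage and region (columns, white lines between stages), as log2 of the mean FPKM over embryos plus 1. The bright cells are Hoxb1, Hoxb2 and Hoxa2 in the P and MP columns of E7.5, and Hoxb1 and Hoxb2 appear from E7.0.

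The clusters differed in how far this went. Over the regions of E7.0 and E7.5, a mean of 1 FPKM in 1 region or more was reached by 3 of 10 Hoxa genes, 4 of 10 Hoxb genes, 1 of 9 Hoxd genes (Hoxd1) and 0 of 9 Hoxc genes, whose highest regional mean was 0.215 FPKM (Hoxc13). By paralogue number, 8 of the 14 members of groups 1 to 5 reached it and 0 of the 24 members of groups 6 to 13, where Hoxb7 was highest at 0.529 FPKM. The Hoxc cluster of the mouse holds no gene of groups 1 to 3, so cluster and paralogue number are not separate here. The 3 members Hoxa2, Hoxb1 and Hoxb2 reached a regional mean of 5 FPKM and are given embryo by embryo below. Another 5, Hoxa3, Hoxa5, Hoxb3, Hoxb4 and Hoxd1, peaked at regional means of 1.90 to 2.32 FPKM, and 30 stayed at 0.784 FPKM or less.

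Before E7.0 most Hox values above 1 FPKM stood alone. The highest was Hoxc8, a gene of the thoracic body, at 39.0 FPKM in section 3 of A in embryo 1 at E5.5. That library had 3725 genes at 1 FPKM or more and also held Hoxc13 at 6.17 FPKM, and no other library of E5.5 held Hoxc8 at 1 FPKM. Hoxa10, a gene of the posterior trunk, reached 12.4 FPKM in section 3 of EA in embryo 5 at E6.5, in a library with 4826 genes. Both libraries were among those doubted for few genes. Over all stages the 30 low members were at 1 FPKM or more in 226 of 14190 values (1.59%) and listed at 0 in 12674 (89.3%).

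Hoxb1 at E6.5 recurred in the proximal sections of P. It was at 1 FPKM or more in 9 of 37 P libraries, of 5 embryos, and in 2 of 37 A libraries, of 2 embryos, at up to 1.21 FPKM. In the 2 most proximal P sections, in order, embryo 1 had 0.396 and 0.921 FPKM, embryo 2 had 2.30 and 2.73, embryo 3 had 1.46 and 1.15, embryo 4 had 1.83 and 2.06, embryo 5 had 1.66 and 1.14, and embryo 6 had 0.841 and 1.05. In each embryo the highest Hoxb1 value of P was 1 of these. Averaged over all sections, P was at 0.261, 0.839, 0.634, 0.693, 0.584 and 0.318 FPKM in embryos 1 to 6, and A at 0.00975, 0.0614, 0.339, 0.0183, 0.220 and 0.0224, so P was higher in 6 of 6 embryos. Embryo 6 is labelled E6.5, while the name of the deposited table with its values gives E6.0. No member reached the mean of 1 FPKM needed to be tested between P and A at E6.5. Without that filter, a setting tried as an alternative, Hoxb1 was higher in P by 0.37 ± 0.07 (SE) on the log2 scale, with an adjusted p of 0.033 by limma with Benjamini-Hochberg adjustment over 22400 genes. It was the only one of 36 members with a value to pass, and 0.589% of all genes passed in that direction.

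Hoxd1 showed a fainter pattern of the same kind at E6.5. It reached 1 FPKM in 5 of 37 P libraries, 1 in each of 5 embryos and none of them below section 6, with a highest value of 1.95 FPKM, and in 1 of 37 A libraries. Its difference without the filter, 0.14 ± 0.05 (SE), had an adjusted p of 0.47. Hoxb2 reached 1 FPKM in 1 library of E6.5, the most proximal section of P in embryo 6, at 1.38 FPKM.

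At E7.0 Hoxb1 stood in P and M, with a large difference between the 2 embryos. In P of embryo 1 it was at 6.92, 6.90 and 3.14 FPKM in sections 9, 10 and 11 and below 1 FPKM in sections 1 to 8. In P of embryo 2 it was at 0 in sections 1 and 2, at 4.58 in section 3 and between 6.99 and 19.9 FPKM in sections 4 to 11. The proximal end held the gene in both embryos, and it reached 6 sections further distally in embryo 2. The means over sections were 1.67 and 9.82 FPKM in P, and 1.95 and 4.90 in M. In EP all 10 libraries of embryo 1 were at 0, and embryo 2 had a mean of 3.26 FPKM. Hoxb1 was at 0 in all 7 A, 6 L and 5 R libraries of this stage. Labels stage an embryo only as E7.0, and whether embryo 2 was further on in development was not tested. Embryo 1 also had fewer genes at 1 FPKM or more per library, with a median of 8134 (lowest 4654) against 9550.5 (lowest 8133) in embryo 2. The part of library quality in the difference between the embryos was not tested either.

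Within P at E7.0, Hoxb2 was found where Hoxb1 was. Of the 22 P libraries, 12 held Hoxb1 at 1 FPKM or more and 10 held Hoxb2, and every library with Hoxb2 also held Hoxb1. In embryo 1, Hoxb2 was at 1.03 and 2.91 FPKM in sections 10 and 11. In embryo 2 it rose from 1.02 FPKM in section 4 to 6.96 in section 11. In M, 8 of the 9 libraries with Hoxb2 also held Hoxb1, which 14 of 20 libraries held. In EP 5 of 20 libraries held each gene and 3 held both, so 2 held Hoxb2 at 1 FPKM or more without Hoxb1. The embryo means of Hoxb2 were 0.372 and 2.56 FPKM in P and 0.775 and 3.33 in M.

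**Figure D2:**
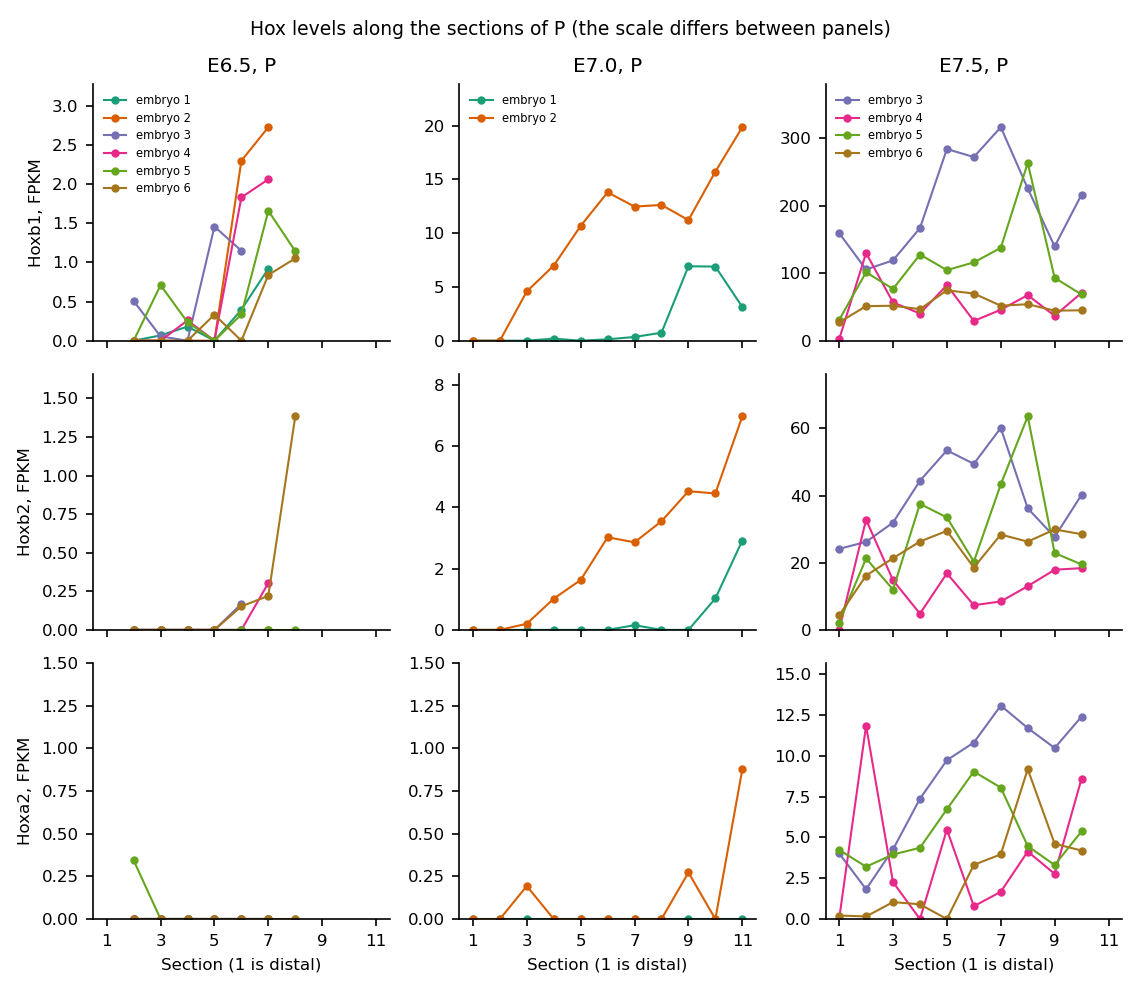
FPKM of Hoxb1, Hoxb2 and Hoxa2 (rows) in each section of P, from distal (1) to proximal, at E6.5, E7.0 and E7.5 (columns), with 1 line per embryo and a linear scale that differs between panels. At E7.0 Hoxb1 and Hoxb2 rise toward the proximal end, and at E7.5 Hoxb1 is high in nearly all sections.

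At E7.5 Hoxb1 and Hoxb2 were at 1 FPKM or more in 9 or 10 of the 10 P sections of every embryo, and Hoxa2 in 10, 7, 10 and 6 of them in embryos 3, 4, 5 and 6. Hoxb1, which patterns the hindbrain and the streak-derived tissues, was at 200.5, 56.2, 111.9 and 51.7 FPKM in P of embryos 3, 4, 5 and 6 (mean 105 ± 69.3, SD, n = 4). Hoxb2, a gene of the hindbrain and branchial region, was at 39.4, 13.4, 27.6 and 22.9 FPKM (25.8 ± 10.8, SD, n = 4). Embryo 3 was highest and embryo 4 or 6 lowest for both genes. Hoxa2, known for its role in the second branchial arch, was at 8.56, 3.75, 5.27 and 2.76 FPKM (5.09 ± 2.54, SD, n = 4). Together these 3 genes made up 87.2% to 93.2% of the FPKM of the 38 members, summed, in P. In bulk samples of this kind, more cells with a gene and more RNA per cell cannot be told apart.

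Within libraries the order of levels per length was nearly the same throughout P at E7.5. Hoxb1 was above Hoxb2 and above Hoxa2 in all 40 P libraries. Hoxb2 was above Hoxa2 in 10, 9, 9 and 10 of the 10 sections of embryos 3, 4, 5 and 6. Of the 40 P libraries, Hoxb1 reached 1 FPKM in all, Hoxb2 in 39 and Hoxa2 in 33. The lowest Hoxb1 value of these libraries was 2.09 FPKM, in section 1 of embryo 4, the median was 75.6 and the highest was 316.

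P was also compared between E7.0 and E7.5, in different embryos and with libraries brought to an equal FPKM sum of 1000000. Of 8 members tested, 4 passed as higher at E7.5 (background: 0.26% of 10017 genes). Hoxa2, Hoxa3 and Hoxb3 were under 1 FPKM at E7.0 and came to be tested by their E7.5 level, so for them a high level at E7.5 was part of being tested. On the log2(FPKM + 1) scale Hoxb2 was higher by 4.33 ± 0.46 (SE, adjusted p = 0.0012), Hoxa2 by 3.10 ± 0.50 (0.020), Hoxb3 by 1.97 ± 0.36 (0.027) and Hoxa3 by 2.36 ± 0.46 (0.040), all by limma over 2 embryos against 4. Hoxb1 did not pass, with an estimate of 5.10 ± 0.78 (SE, adjusted p = 0.075), and its E7.0 embryos stood at 1.44 and 3.51 on this scale against 6.36 to 8.72 at E7.5. For these 5 genes no E7.0 embryo reached the lowest E7.5 embryo. Leaving out embryo 1 of E7.0 left 0 of the 8 past the threshold and leaving out embryo 2 left 2, while without embryo 5 of E7.5 there was 1 and without embryo 6 there were 7.

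The comparison of P with A asks which members mark the posterior side. At E7.5 all 7 members tested were higher in P, in 4 of 4 embryos, where 9.73% of all 10348 genes tested passed in that direction. A member came to be tested only by a mean of 1 FPKM in P or A, so for these genes a high P level was part of being tested. The 31 other members were not tested. The difference for Hoxb1 was 6.69, 5.25, 6.05 and 5.79 on the log2 scale in embryos 3, 4, 5 and 6 (5.95 ± 0.28, SE, adjusted p = 4.3e-06). For Hoxb2 it was 4.92, 3.76, 3.51 and 4.57 (4.19 ± 0.28, adjusted p = 3.1e-05). No embryo of either gene came near 0. Hoxa2 differed by 2.20 ± 0.23 (adjusted p = 0.00042).

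The later genes of both clusters followed with smaller differences. Hoxa3, Hoxb3 and Hoxb4 were higher in P by 1.46 ± 0.22, 1.38 ± 0.20 and 1.21 ± 0.22 (SE), with adjusted p of 0.0029, 0.0022 and 0.0078. Hoxa5 was higher by 1.06 ± 0.27 (adjusted p = 0.033) and ranged from 0.09 in embryo 6 to 1.81 in embryo 3. It passed in 9 of the 16 alternative settings, with adjusted p from 0.00098 to 0.14, and did not without embryo 3, 4 or 5, nor without either embryo of E7.0, whose spread enters the fit. Tests used limma with Benjamini-Hochberg adjustment over all genes. The median of all genes in this comparison was 0.18, below each of these differences, and the 7 also passed with libraries brought to equal sums or medians.

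At E7.0 no member of the 7 passed (background: 0.763% of all genes higher and 0.522% lower) by limma, and 1, Hoxb1, had an unadjusted p under 0.05. Its difference was 1.05 in embryo 1 and 2.50 in embryo 2 (1.77 ± 0.39, SE, adjusted p = 0.070). With 2 embryos and sections 3, 6 and 9 of embryo 1 and 1, 3, 6 and 9 of embryo 2 to compare, the most proximal sections, which held the highest Hoxb1 value of embryo 2, did not enter. The other 6 lay between -0.11 and 0.59. Of these, Hoxa2, Hoxa3, Hoxa5, Hoxb3 and Hoxb4 came to be tested by their E7.5 level and were low in P and A of E7.0. They could hardly pass, so the count says little of them.

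The change of this difference from E7.0 to E7.5 was itself tested. Hoxb1 moved from 1.05 and 2.50 in the E7.0 embryos to between 5.25 and 6.69, a change of 4.17 ± 0.48 (SE, adjusted p = 0.023), and Hoxb2 by 3.60 ± 0.49 (adjusted p = 0.055). So 1 of 7 members passed, against 0.0387% of all genes in that direction, by limma. The call held in 10 of 16 alternatives, and it was lost on leaving out embryo 1 of E7.0, embryo 3 or 5 of E7.5 or section 1. Without embryo 6 of E7.5 2 members passed, Hoxb2 being the other.

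**Figure D3:**
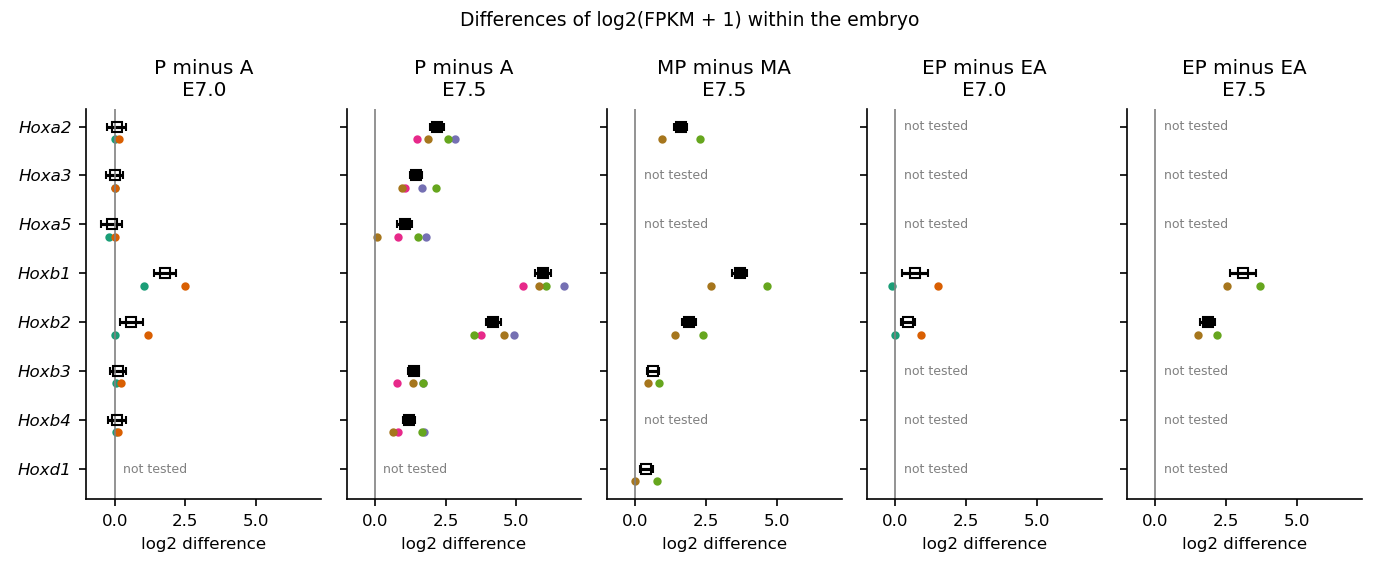
Differences of log2(FPKM + 1) between regions of the same embryo for 8 Hox genes in 5 comparisons. Round points are embryos, coloured by embryo as in the section plots, and squares are the estimate with its standard error, filled where the adjusted p is under 0.05. In the panel of P minus A at E7.5 every embryo lies to the right of 0 for each of the 7 genes tested.

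Presence in P at E7.5 was lower for higher paralogue numbers in Hoxa and Hoxb, with exceptions. Of the 40 P libraries, 33 held Hoxa2 at 1 FPKM or more, 28 Hoxa3, 11 Hoxa4 and 22 Hoxa5. In the other cluster 40 held Hoxb1, 39 Hoxb2, 32 Hoxb3, 20 Hoxb4, 6 Hoxb5 and 4 Hoxb6. The order was not strict: Hoxa5 was above Hoxa4, and Hoxb7, in 9 libraries, was above Hoxb5 and Hoxb6. In Hoxd, 13 libraries held Hoxd1, 1 Hoxd3, 2 Hoxd4 and 4 Hoxd8, so the order did not hold there, and Hoxd1 was in fewer libraries than Hoxb4 or Hoxa5. Embryo means of Hoxa5 in P were 3.29, 1.43, 4.07 and 0.336 FPKM in embryos 3 to 6, and those of Hoxa4 were 0.995, 0.482, 1.44 and 0.223, so Hoxa5 was the higher of the pair in 4 of 4 embryos, while the 2 ranges overlapped. A count at a fixed FPKM depends on transcript length and depth, so the order is a description.

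**Figure D4:**
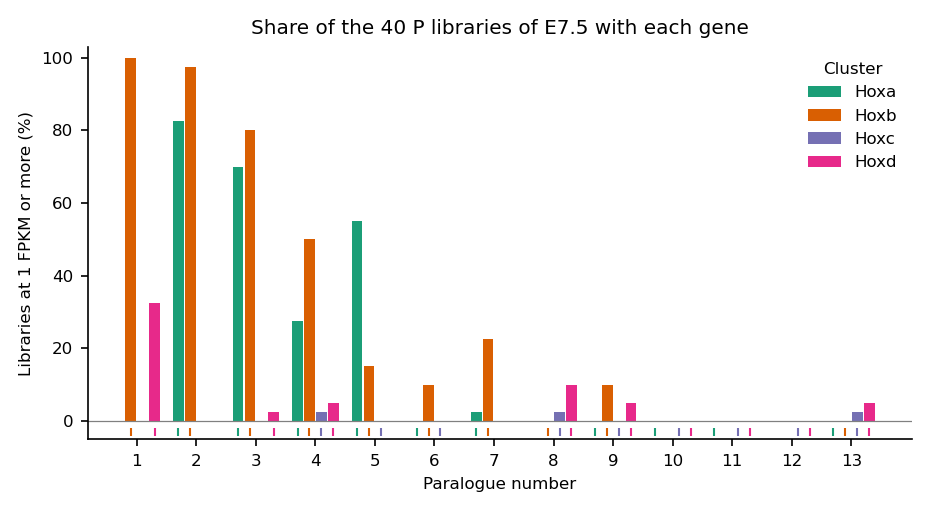
Percent of the 40 P libraries of E7.5 with at least 1 FPKM of each Hox gene, by paralogue number, with 1 colour per cluster; tick marks under the axis show which paralogues a cluster has. The bars fall from 100% for Hoxb1 and 82.5% for Hoxa2 to 10.0% or less for all members of group 8 and beyond.

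Of the middle genes, which code for factors of the neck and upper trunk, Hoxa3 was at 2.46, 2.27, 3.59 and 0.943 FPKM in P of embryos 3 to 6, Hoxb3 at 2.42, 1.30, 2.40 and 1.72, and Hoxb4 at 3.24, 1.35, 2.51 and 0.485. Hoxd1 was at 1.64, 0.490, 1.43 and 1.21 FPKM. Embryo 6 was lowest for Hoxa3, Hoxa5 and Hoxb4, and embryo 4 for Hoxb3 and Hoxd1. Of the 13 P libraries with Hoxd1 at 1 FPKM, 12 lay in section 6 or above. In sections 9 and 10 it was at 2.55 and 5.10 FPKM in embryo 3, at 0 and 0.938 in embryo 4, at 1.38 and 2.21 in embryo 5 and at 3.27 and 6.94 in embryo 6.

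The mesoderm of E7.5 also split by side. In MP of embryos 5 and 6 Hoxb1 was at 60.5 and 22.3 FPKM, Hoxb2 at 17.0 and 12.0, and Hoxa2 at 4.51 and 1.26. In MA of the same embryos Hoxb1 was at 1.86 and 2.94 FPKM, Hoxb2 at 3.21 and 5.69, and Hoxa2 at 0.102 and 0.0505. Both MP values lay above both MA values for each of the 3 genes. The differences on the log2 scale were 4.68 and 2.70 for Hoxb1, 2.40 and 1.41 for Hoxb2 and 2.28 and 0.94 for Hoxa2. By limma 3 of 5 members tested passed as higher in MP (background: 1.63% of 9322 genes), and Hoxb3 (0.64, adjusted p = 0.073) and Hoxd1 (0.40, adjusted p = 0.74) did not. Hoxa2 came to be tested by its MP level alone. With 2 embryos 1 degree of freedom was left, and the spread of a gene was then taken almost wholly from all genes, so these p-values say little of the gene's own spread. With equal FPKM sums and with equal medians 1 of the 3 passed (Hoxb2), all differences staying positive. The streak markers, summed, were at 143 to 315 FPKM in MP and 23.8 to 107 in MA, and their part in the difference was not tested.

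Hoxb1 and Hoxb2 exchanged places between the sides. Hoxb1 was above Hoxb2 in all 18 MP libraries, with ratios of the embryo means of 3.57 and 1.86. In MA Hoxb2 was the higher of the 2 in 6 of 9 libraries of embryo 5 and in 7 of 9 of embryo 6, and the ratios of Hoxb1 to Hoxb2 were 0.580 and 0.516. In MA of embryo 6 Hoxb2 was at 10.8, 14.1, 7.68 and 10.9 FPKM in sections 7 to 10 and at most 4.51 FPKM in sections 2 to 6. The ratio was not tested between regions.

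Hoxb3 and Hoxd1 had their highest regional means in MP, at 2.03 and 2.11 FPKM over embryos 5 and 6, against 1.96 and 1.19 in P over embryos 3 to 6. These means rest on unlike sets of embryos. Within embryos 5 and 6, MP minus P on the log2 scale was -0.21 and -0.02 for Hoxb3 and 0.10 and -0.02 for Hoxd1. The higher mean of Hoxb3 in MP thus did not hold within embryos. Of the 8 members with a regional mean of 1 FPKM, Hoxd1 was the one whose highest single library was mesoderm, at the proximal end. In sections 8, 9 and 10 of MP it was at 7.13, 8.01 and 9.71 FPKM in embryo 5 and at 1.92, 2.80 and 6.30 in embryo 6, and in sections 2 to 7 it stayed at 0.548 FPKM or less in both. In MA it was at 1.70 and 2.73 FPKM in sections 9 and 10 of embryo 5 and at 6.00 and 14.9 in those of embryo 6, the highest value of this gene in any library. Both sides of the mesoderm thus held it in their most proximal sections.

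Mesoderm was also set against P of the same embryos. At E7.0 0 of 8 members passed for M against P (background: 14.7% lower and 1.98% higher) by limma, and 0 had an unadjusted p under 0.05. Hoxa2, Hoxa3, Hoxa5, Hoxb3, Hoxb4 and Hoxd1 came to be tested by their E7.5 level. Hoxa2, Hoxa3 and Hoxb4 were under 1 FPKM in every P and M library of E7.0. Genes this low could hardly pass, so the count says little of them. Hoxb1 differed by 0.16 in embryo 1 and -0.96 in embryo 2. At E7.5 5 of 8 members were lower in MP than in P, where 31.6% of all genes were lower and the median of all genes was -0.32. The 5 members were Hoxb1 (-1.18), Hoxa5 (-0.98), Hoxa3 (-0.96), Hoxb2 (-0.92) and Hoxb4 (-0.90), of which Hoxa5, Hoxa3 and Hoxb4 came to be tested by their P level alone. With equal FPKM sums, with equal medians and without the embryo block 0 of them passed. Without embryo 5 there was 1 and without embryo 6 there were 3. Hoxa2, Hoxb3 and Hoxd1 differed by -0.43, -0.12 and 0.04 and did not pass.

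In the endoderm regions, Hoxb1 in EP of E7.5 was at 18.2 and 8.05 FPKM in embryos 5 and 6, and Hoxb2 at 6.57 and 2.97. In EA of the same embryos both were below 0.5 FPKM, Hoxb1 at 0.145 and 0.0940 and Hoxb2 at 0.441 and 0.229. The groups did not overlap. Of 2 members tested, 1 passed as higher in EP (background: 0.382% of 9943 genes), Hoxb2 by 1.85 ± 0.26 (SE, adjusted p = 0.0011), by limma over 2 embryos. Both came to be tested by their EP level alone, so a high EP level was part of being tested. Hoxb1 had the larger difference, 3.70 and 2.52 in the 2 embryos (3.11 ± 0.46, adjusted p = 0.077). With equal medians 0 of the 2 passed. Leaving out 1 embryo leaves 1 at its stage, with a spread taken still more from all genes. Such fits cannot strengthen the call of either gene. At E7.0 0 of 2 passed (background: 0.402% higher and 1.23% lower) by limma and 0 had an unadjusted p under 0.05. Hoxb1 differed there by -0.13 in embryo 1 and 1.52 in embryo 2. EP as a whole carried streak markers, at a sum of 69.0 to 163 FPKM per embryo against 19.6 to 34.6 in EA, and the part of streak tissue in the EP values was not tested.

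Against P, EP was lower. At E7.5 7 of 7 members tested passed (background: 37% of 10133 genes lower, median of all genes -0.41), with Hoxb1 at -3.04 ± 0.21 (SE, adjusted p = 0.00024) and Hoxb2 at -2.57 ± 0.24 (0.00052) by limma. At E7.0 only Hoxb1 of 7 passed (-1.30 ± 0.21, adjusted p = 0.0026; background: 38.5% lower). With such shares of all genes the count of members is no result about them. Hoxa2, Hoxa3, Hoxa5, Hoxb3 and Hoxb4 came to be tested by their P level at E7.5 alone, so a high P level was part of being tested. At E7.0 they were low in both regions, so that count says little of them. Without embryo 5 of E7.5 3 of the 7 passed.

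In A of E7.5, Hoxb1, Hoxb2 and Hoxa2 were highest at the distal tip. In section 1, taken in embryos 1, 2 and 3, Hoxb1 was at 110.2, 80.9 and 55.5 FPKM, Hoxb2 at 15.1, 12.7 and 9.49 and Hoxa2 at 2.40, 5.07 and 2.57. In the 25 libraries of sections 4 to 10 Hoxb1 had a median of 0.0642 and a highest value of 1.41 FPKM, and Hoxb2 a median of 0 and a highest value of 3.49. Section 9 of embryo 5 held the highest value of both genes there. In section 2 Hoxb1 was at 9.62, 14.8 and 0.0754 FPKM. Hoxb2 was at 0.487, 2.20 and 0 there. Not every member was highest distally: Hoxd1 was at most 1.04 FPKM in section 1 and reached 1.67 in sections 4 to 10, and Hoxb4 was at most 0.287 and 0.671.

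The same libraries differed from the rest of A in their markers. T, the streak and node factor, was at 1216, 237.7 and 299.2 FPKM in section 1 and at 14.8, 13.4 and 79.9 in section 2 of embryos 1, 2 and 3, against a median of 1.29 in sections 4 to 10. Foxa2, a factor of node, axial mesoderm and endoderm, was at 70.2, 25.3 and 26.5 FPKM in section 1 and at 19.7, 16.4 and 26.5 in section 2, against a median of 0.284. Otx2, an anterior factor, was at 1.46 FPKM or less in these 6 libraries, against a median of 52.0. The 5 streak markers summed to 287 to 1324 FPKM in section 1 and 0 to 12.6 in sections 4 to 10. Section 1 of A thus carried streak markers and little Otx2, against its label, and in the comparison of P with A at E7.5 it entered through embryo 3 alone. The part of streak or node tissue in these Hox values was not tested. Without section 1 all 7 members still passed at E7.5.

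**Figure D5:**
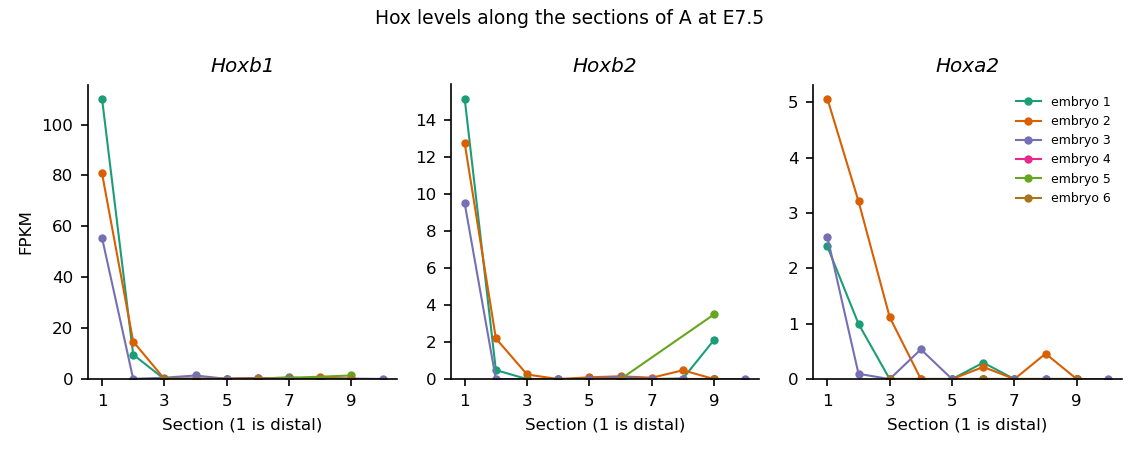
FPKM of Hoxb1, Hoxb2 and Hoxa2 in each section of A at E7.5, from distal (1) to proximal, with 1 line per embryo. All 3 genes are highest in section 1, where Hoxb1 is at 55.5 to 110.2 FPKM.

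For E7.5, lateral regions could be tied to samples by name in embryo 3 alone, so their values have no replicate here. Over sections 3 to 9, Hoxb1 averaged 0.370 FPKM in A, 0.556 in L1, 22.6 in L2, 217.6 in P, 1.29 in R1 and 12.2 in R2. Hoxb2 averaged 0.0170 FPKM in A, 0.668 in L1, 8.76 in L2, 43.3 in P, 0.162 in R1 and 5.93 in R2. Both genes were low in L1 and R1 and stood between A and P in L2 and R2. The lowest Hoxb1 value of L2 was 12.7 FPKM and the highest of L1 was 1.69, so those did not overlap. R2 ran from 1.35 to 31.1 FPKM and R1 from 0 to 7.45, which did. Hoxa2 averaged 3.33 FPKM in L2 and 9.63 in P, and 0.0241 in L1. At E7.0, by contrast, L and R held no Hoxb1, and Hoxb2 was at most 0.328 FPKM there.

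In embryo 4 of E7.5 the inner layers carry the codes E1, E2, M1 and M2, which are not tied here to a side. Hoxb1 averaged 4.98, 3.15, 14.9 and 11.4 FPKM in them and Hoxb2 0.839, 1.57, 2.42 and 2.50. Embryo 4 had a median of 6555 genes at 1 FPKM, the lowest of the 6 embryos of E7.5. Both M means lay above both E means for each gene, while the ranges over sections overlapped, and there is no replicate.

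Along the axis from distal to proximal, a slope was fitted in each embryo, with the most distal section set to 0 and the most proximal to 1. In P at E7.0 Hoxb1 rose by 2.97 and 3.94 on the log2 scale from end to end (3.45 ± 0.53, SE, adjusted p = 6.7e-08) and Hoxb2 by 1.28 and 3.11 (2.20 ± 0.54, 0.0027), 2 of 8 members tested against 1.47% of all 10017 genes, by limma. Hoxb1 passed in 15 of 15 alternatives and Hoxb2 in 12 of 15, with an adjusted p of 0.629 without embryo 2. As above, the spread was taken largely from all genes. At E7.5 the slope of Hoxb1 was 0.77, 1.56, 1.02 and 0.31 in embryos 3 to 6 (0.91 ± 0.37, adjusted p = 0.099), and its change between stages, -2.54 ± 0.65, had an adjusted p of 0.015 (background: 0.26% lower). That call passed in 8 of 14 alternatives, and it was lost on leaving out embryo 1 or 2 of E7.0 or embryo 5 or 6 of E7.5. The gradient of Hoxb1 was thus shallower at E7.5 in all 4 embryos than in either embryo of E7.0.

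At E7.5 6 of 8 members passed in P as rising proximally (background: 7.35%), led by Hoxb4 (2.09 ± 0.35, SE, adjusted p = 2.2e-06), Hoxa5 (1.93 ± 0.35, 1.1e-05) and Hoxd1 (1.90 ± 0.36, 3.2e-05), then Hoxa2 (1.60), Hoxb2 (1.46) and Hoxa3 (1.05), by limma. Hoxb1 and Hoxb3 did not pass, with slopes of 0.91 and 0.97 (adjusted p = 0.099 and 0.054). All genes had a median slope of 0.44. With equal FPKM sums 3 passed, with equal medians 2, without a filter 0, and without section 1 or without embryo 6 the number was 4, so it depends on these settings. All 8 slopes were positive in 4 of 4 embryos. In mesoderm Hoxb2 passed in M at E7.0 (2.78, adjusted p = 0.00084; 1 of 5 members, background 1.67%) and Hoxd1 in MP at E7.5 (3.10, adjusted p = 1.4e-06; 1 of 5, background 1.26%). In EP at E7.5 Hoxb1 fell toward the proximal end (-2.51, adjusted p = 0.023; 1 of 2, background 1.21% lower). These 3 calls were lost under equal FPKM sums and under equal medians, and single embryos decided them: the first was lost without either embryo of E7.0, the call in MP without either embryo of E7.0, with which it shares the fit, and the call in EP without embryo 5 or 6.

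Genes known to act with or on the clusters were counted from lists, in the comparison of P with A at E7.5, where 9.73% of all genes passed as higher and 2.89% as lower. Of 13 posterior signals and factors tested, 10 were higher in P and 0 lower, with Cdx1 (5.12), Wnt3a (4.49), Fgf8 (4.33) and Wnt8a (4.07) of the smallest p. This list holds genes known to be posterior. T and Fgf8 of it also served above as streak markers of P, so its direction was partly set in advance. Among the 10, Wnt3a, Fgf4 and Wnt3 stood at 0.719, 0.514 and 0.247 FPKM in A at E7.5. At that stage they reached the mean of 1 FPKM in P alone, so a high P level was part of being tested. The ParaHox genes, the sister cluster of the Hox genes, had 3 of 3 tested higher: Cdx1, Cdx2 (4.27) and Cdx4 (1.29). These 3 are among the 10 posterior genes as well, so the counts overlap. Cdx4, at 2.26 FPKM in P and 0.0488 in A, came to be tested by its P level alone. Gsx1, Gsx2 and Pdx1, the other ParaHox genes listed, were not tested. Of 11 retinoid genes, 3 were higher and 0 lower, namely Aldh1a2, which makes retinoic acid (3.74), the receptor gene Rxrg (2.36) and the retinol dehydrogenase gene Rdh10 (1.10). Of 8 TALE cofactors, the partners of Hox proteins on DNA, Meis2 (2.37) and Pknox2 (2.11) were higher and Pbx4 (-0.96) lower. Pbx4, at 0.809 FPKM in P and 3.96 in A at E7.5, reached the mean of 1 FPKM at that stage in A alone.

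Of 18 Polycomb and Trithorax genes tested, which code for keepers of the silent and active state of Hox clusters, 1 was higher (Phc2, 1.41) and 3 lower (Cbx7, -1.80, Phc1, -0.99 and Jarid2, -0.82). Cbx7 was at 1.57 ± 0.710 FPKM in P (SD, n = 4) and 8.48 ± 3.62 in A (n = 6). Of 8 neighbours of the clusters tested, Evx1, which lies beyond the Hoxa13 end of its cluster (3.33), and Skap2, beyond its other end (1.87), were higher in P, and Mtx2 and Hibadh did not pass. Evx1 was at 13.9 ± 7.66 FPKM in P, although the Hoxa genes nearest to it were at 0.0219 FPKM (Hoxa11) and 0 (Hoxa13). Of the noncoding genes in the clusters, 6 of 12 were in the tables and 1 was tested, Hoxaas3, which was higher in P by 0.86 (adjusted p = 0.027 by limma). Evx1, at 0.218 FPKM in A, and Hoxaas3, at 0.0340, came to be tested by their P level alone. Medians of these lists were 2.56, 4.27, 0.20, 0.23, 0.11 and 0.49 for the posterior, ParaHox, retinoid, TALE, chromatin and neighbour lists, beside 0.18 for all genes.

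The genes whose pattern was most like Hoxb1 were taken over the 25 stage and region means of E7.0 and E7.5, among 7605 genes and without other Hox genes. Pdlim4 came first (Pearson's r = 0.92), then Aldh1a2 (0.91), Meis2 (0.88), Car3 (0.86), Gal (0.85), Tbx6 (0.84), Hes7 (0.83), Igdcc3 (0.82), Cdx2 (0.80) and Cdx1 (0.80). The points share embryos and libraries, so r is a description without a p. In P, Gal stood at a library mean of 2.05 FPKM at E7.0 and 200.7 at E7.5, Cdx1 at 4.70 and 88.3, and Aldh1a2 at 0.474 and 28.4. Tbx6 and Hes7 were already at 13.3 and 12.0 FPKM at E7.0.

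Some values may hold reads of other genes. Of the 38 members, 15 share exonic bases with another annotated gene. For Hoxb3 52.9% of its exonic bases lie opposite the antisense gene Hoxb3os, and for Hoxb2 27.3%. Hoxa2 shares 15.0% with Gm28308 on its own strand. The library kit, Nextera XT, does not mark the strand, so reads from a gene and its antisense partner cannot be told apart. Hoxb1, Hoxa5, Hoxb4 and Hoxd1 share none.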

How the data were processed

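Geo-seq libraries were aligned with TopHat2 2.0.8b and quantified with Cufflinks 2.1.1 on mm10, per the submitters' processing notes; the annotation and options are not given in the sources used here. The authors deposited FPKM per gene and library, and no counts, so the depth behind a value is unknown. Of 584 columns, 473 matched 1 sample by name and 111 did not and were not used; 113 samples had no such column. Of the 39 rows that match the symbol rule 1 is not reported here, nor is 1 gene of the retinoid list. The members and lists were chosen with earlier results of these data known.

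Levels were averaged over the sections of a region in an embryo. Tests used log2(FPKM + 1) and genes with a mean of at least 1 FPKM in 1 group compared. For regions, differences were taken between the same sections of an embryo and averaged per embryo, so the embryo is the block. The labels tie these samples to 1 embryo, and same-embryo deviations of A and P correlated at 0.681 to 0.891 at E6.5 and 0.401 to 0.772 at E7.5. Slopes used at least 4 sections. Embryo values were fitted with limma 3.58.1 (trend, robust, statmod 1.5.0, R 4.3.3), E7.0 and E7.5 sharing the spread where both enter, with Benjamini-Hochberg adjustment over all genes at 0.05. Fits of 2 embryos take most of the spread from all genes. Stages were compared after scaling each library to 1 FPKM sum. Scripts ran on Python 3.11.15 with numpy 2.4.6, pandas 2.3.3 and matplotlib 3.10.9 and were tested on simulated data. Planted log2 differences of 2 were found in 92% to 100% of genes, but in 65% for mesoderm slopes and 6% for EP slopes. Planted slopes of 1 were found in 16% or less. Of all calls, 5.26% to 8.2% fell on genes not planted. That share was 12.1% for EP minus EA, 10.1% for mesoderm slopes and 25% for EP slopes. Members with a mean of 5 FPKM in a region of E7.0 or E7.5 are given in full and the others in ranges and counts; genes of other lists were named by their smallest p. Alternatives were a pseudocount of 0.1, no filter or one at 5 FPKM, equal FPKM sums or medians, each embryo left out, no block, all sections, the rank of the section, each stage fitted alone and 5 stages in 1 fit; fits without the doubted libraries and without section 1 were chosen after seeing the data.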

Additional observations from a re-analysis of the deposited data

Results flagged for a closer look

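Among 11 groups of 4 to 6 embryos tested, 1 held an embryo far from the others: Hoxa2 in A at E7.5, where embryo 2 stood at 1.12 FPKM and the other 5 at 0 to 0.410. Chance gives such a gap in about 1 in 20 groups of embryos sampled alike, which these were not. A of embryos 4, 5 and 6 came from sections 3, 6 and 9 alone, without the distal sections 1 and 2. The gap thus cannot be told apart from the sections taken. In embryo 2 the highest Hoxa2 values lay in sections 1, 2 and 3, at 5.07, 3.21 and 1.12 FPKM.

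The difference between P and A changed from E7.0 to E7.5 by 4.17 for Hoxb1 on the log2 scale, and the slope of Hoxb1 along P changed by -2.54. Each was a test of the difference between the 2 stages, with 2 embryos at E7.0.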

How the results depend on the processing

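No difference of a named member past the threshold, in the main setting or the alternative, changed sign; some below it did, among them Hoxb1 in M against P and in EP against EA at E7.0, from -0.96 to 0.16 and from -0.13 to 1.55. Counts of members past the threshold moved as follows. With a filter at 5 FPKM they were 2 for P against A, 2 for MP and 2 for EP against P, 2 for the slope in P and 2 for P between stages, all at E7.5, where 2 or 3 members were tested. Without a filter they were 1 for P against A at E6.5 and 0 for its change, 2 for EP against EA, 0 lower in MP than P, 1 higher in EP than P at E7.0, 1 for the slope in P at E7.0, 0 at E7.5 and 0 for its change. With equal FPKM sums they were 2 for EP against EA, 1 for MP against MA, 0 for MP against P and 3 for the slope in P at E7.5. With equal medians they were 2 for the change of P against A, 0 for EP against EA, 1 for MP against MA, 0 for MP against P, 1 and 2 for the slope in P at E7.0 and E7.5 and 0 for its change. The slopes in M, MP and EP fell to 0 under each of these scalings, without a filter and with a pseudocount of 0.1, and those in MP and EP also with a filter at 5 FPKM. That pseudocount gave 0 for the change of P against A, 2 for EP against EA, 3 for MP against P and 2 for EP against P at E7.0. With 5 stages in 1 fit P against A had 1 at E7.0 and 5 for its change, which was 2 over all sections and 0 without section 1. E7.5 fitted alone gave 2 for EP against EA. Onset numbered 2, 0 and 0 members at E7.0 with 0.5, 2 and 5 FPKM, and 2 at E7.5 with 5 FPKM. The causes were not tested.

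Without the replicate block, the pairing of regions within an embryo, there were 2 for the change of P against A, 0 for MP against P and 0 for EP against P at E7.0, and P against A at E7.5 kept a count of 7. Leaving out 1 embryo gave 6 to 7 for P against A at E7.5 and 0 to 2 for its change, 0 to 1 and 2 to 2 for EP against EA at E7.0 and E7.5, 0 to 1 for M and 1 to 4 for MP lower than P, 1 to 1 and 3 to 6 for EP lower than P, 1 to 2 and 4 to 7 for the slope in P, 0 to 2 higher and 0 to 1 lower for its change, 0 to 1 for each slope in M, MP and EP, and 0 to 7 for P between stages. For MP against MA it left 1 embryo and values with no test. For EP against EA, and for mesoderm or EP against P, it left 1 embryo at a stage. The spread then came still more from all genes, so passes gained in this way strengthen no call. FPKM without counts leave the limit that depth sets unknown.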

Other observations

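The lists of genes that act with or on the Hox clusters were also counted between MP and MA at E7.5, in embryos 5 and 6, where 1.63% of all genes passed as higher and 1.81% as lower in MP by limma. Of 13 posterior signals and factors tested, 10 were higher in MP and 0 lower, with a median difference of 1.05 on the log2 scale, beside -0.09 for all genes. All 3 ParaHox genes tested were higher, with a median of 2.29. Cdx1, Cdx2 and Cdx4 are in both lists, so the counts overlap. Of 10 retinoid genes 2 were higher and 1 lower and of 8 TALE cofactors 1 was higher.

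Cyp26a1, which breaks retinoic acid down, stood at E7.5 at 11.8 ± 21.9 FPKM in P (SD, n = 4) and 35.7 ± 33.1 in A (n = 6), a difference of -1.56 that did not pass (adjusted p = 0.322 by limma).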
